A study of Mus musculus with 12 samples.

Results

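The 39 genes described here encode the machinery of fatty acid and cholesterol synthesis: 5 regulators of the sterol regulatory element binding proteins, 17 tested cholesterol genes and 15 tested fatty acid genes, with Idi1 and Acacb beside them. They were chosen by gene symbol, out of 17009 named genes on the array, through the RefSeq transcript that each probe was designed for. The samples were lung tissue of FVB/NJ mice (also written FVB/N), labelled as female and 7 weeks old at the start, with 3 arrays per group. Nothing in the labels says that the arrays of a group came from separate mice, so p-values measure the spread between these samples. PBS mice received PBS weekly for 16 weeks, by a route that is not given in the sources used here. LPS mice received lipopolysaccharide, the endotoxin of bacterial cell walls, at 5 ug per mouse into the nose weekly for 16 weeks. NNK mice received the tobacco nitrosamine carcinogen NNK by intraperitoneal injection (3 mg per mouse) over the first 4 weeks, at a frequency that the labels give both as biweekly and as semi-weekly. LPS/NNK mice received both. The labels put death 1 week after the last treatment, and NNK treatment ran for 4 weeks against 16 in the other groups. The time from the last NNK dose to death may therefore be shorter in NNK than in LPS/NNK lungs. That time cannot be told apart from endotoxin where these groups are compared. The age of the NNK mice at death is not given in the sources used here, so NNK lungs may have been taken at a younger age than the others, and age and treatment cannot be told apart in comparisons with NNK. The vehicle of the NNK group, and whether samples held tumour tissue, are not given there either.

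Cells build fatty acids from acetyl-CoA through acetyl-CoA carboxylase and fatty acid synthase, and then desaturate and elongate them. They build cholesterol from the same precursor through mevalonate, squalene and lanosterol. The transcription factors SREBP1 and SREBP2, encoded by Srebf1 and Srebf2, switch these genes on once Scap has escorted them out of the endoplasmic reticulum, where Insig1 and Insig2 hold them back when sterols are abundant. In the lung, alveolar type 2 cells use both pathways to make surfactant, and macrophages and fat cells in or around the tissue use them too.

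Promoter sequence bears on these genes because SREBPs act at short elements together with the factor NF-Y, which binds CCAAT. RefSeq promoter entries (assembly GRCm38.p6) matched 32 of the 39 genes, and 24 of these 32 (75%) held CCAAT on either strand within the 250 bases before the annotated start, against 34.5% of 27025 genes. The sterol regulatory element TCACNCCAC was found in 1 of the 32 (3.1%), Hmgcs1, against 1.0% of all genes, and the E-box TCACGTGA in 0 of 32 against 0.8%. The 5 sequences below are the 250 bases before the start on the strand of the gene, with CCAAT in capitals (written ATTGG where it lies on the other strand) and the sterol element of Hmgcs1 also in capitals. Fasn and Mvd are shown because their levels were higher in every treated group than in PBS. Acss2 and Me1 are shown because they were lower in LPS/NNK than in NNK lungs, and Hmgcs1 because it holds the sterol element. They lie at chr11:120824548-120824797 (minus strand, Fasn), chr8:122443423-122443672 (minus strand, Mvd), chr2:155517793-155518042 (plus strand, Acss2), chr9:86695915-86696164 (minus strand, Me1) and chr13:119690101-119690350 (plus strand, Hmgcs1).
Fasn: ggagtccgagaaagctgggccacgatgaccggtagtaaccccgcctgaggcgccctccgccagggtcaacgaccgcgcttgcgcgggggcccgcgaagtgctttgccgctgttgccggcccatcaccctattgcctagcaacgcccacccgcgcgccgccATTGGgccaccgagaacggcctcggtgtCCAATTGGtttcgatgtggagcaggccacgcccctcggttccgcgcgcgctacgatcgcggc
Mvd: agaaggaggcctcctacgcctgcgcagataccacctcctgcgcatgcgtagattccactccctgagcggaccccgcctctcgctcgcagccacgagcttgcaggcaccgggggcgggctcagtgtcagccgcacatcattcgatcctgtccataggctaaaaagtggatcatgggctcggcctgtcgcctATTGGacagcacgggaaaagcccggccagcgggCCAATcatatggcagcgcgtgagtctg
Acss2: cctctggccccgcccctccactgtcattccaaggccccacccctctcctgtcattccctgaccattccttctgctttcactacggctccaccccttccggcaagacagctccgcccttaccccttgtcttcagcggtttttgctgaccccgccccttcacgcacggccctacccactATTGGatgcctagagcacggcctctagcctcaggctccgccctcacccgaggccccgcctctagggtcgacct
Me1: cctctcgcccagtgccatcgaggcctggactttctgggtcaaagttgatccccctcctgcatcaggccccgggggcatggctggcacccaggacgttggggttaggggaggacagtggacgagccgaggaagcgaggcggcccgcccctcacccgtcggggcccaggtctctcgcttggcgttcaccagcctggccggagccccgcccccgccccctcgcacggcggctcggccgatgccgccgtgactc
Hmgcs1: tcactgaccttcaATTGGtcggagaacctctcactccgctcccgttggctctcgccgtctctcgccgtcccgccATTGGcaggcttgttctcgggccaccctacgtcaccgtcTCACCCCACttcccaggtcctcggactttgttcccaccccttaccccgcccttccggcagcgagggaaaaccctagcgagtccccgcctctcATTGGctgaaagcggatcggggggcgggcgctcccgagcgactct
Fasn and Hmgcs1 each held 3 CCAAT matches, of which 2 in Fasn overlap, Mvd held 2, Acss2 held 1 and Me1 held none of the 3 motifs. A match describes the letters in this window only.

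Each value below is a level: the log2 of the processed array signal relative to the 75th percentile of that array's signals, so that 1 unit is a doubling and probes of different genes are not compared with each other. A gene was called at an adjusted p under 0.05 in limma, over 21856 items tested. Of the 39 genes, 37 were tested and all 37 probes were well above background on all 12 arrays. Idi1 had no probe by the naming rule, and the only probe of Acacb, the mitochondrial acetyl-CoA carboxylase, was well above background on 2 of 12 arrays and was not tested.

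The PBS arrays stood apart from the treated ones over the whole array. Correlations between arrays were 0.977 to 0.983 within PBS, 0.936 to 0.99 among treated arrays and 0.878 to 0.93 between PBS and treated arrays, and 70.2% to 73.1% of spots were well above background in PBS against 55.6% to 67.5% in treated lungs. On PBS 1 and PBS 2, Xist was not above background and all 4 Y-linked genes examined were, against the label female. On PBS 3 and the 9 treated arrays Xist was above background and the Y-linked genes were not. Results against PBS are therefore also given without PBS 1 and 2. That leaves PBS 3 as the only PBS array, so a call lost there cannot be told apart from a loss of precision. Some slides held arrays of 2 groups (slides 5 to 8), and PBS 2 and the 3 LPS arrays each lay on a slide of their own, PBS 2 being scanned on another day. Markers of the labelled tissue, among them Sftpc of alveolar type 2 cells, Ager of type 1 cells, Scgb1a1 of club cells and Pecam1 of endothelium, were well above background on all 12 arrays.

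**Figure D1:**
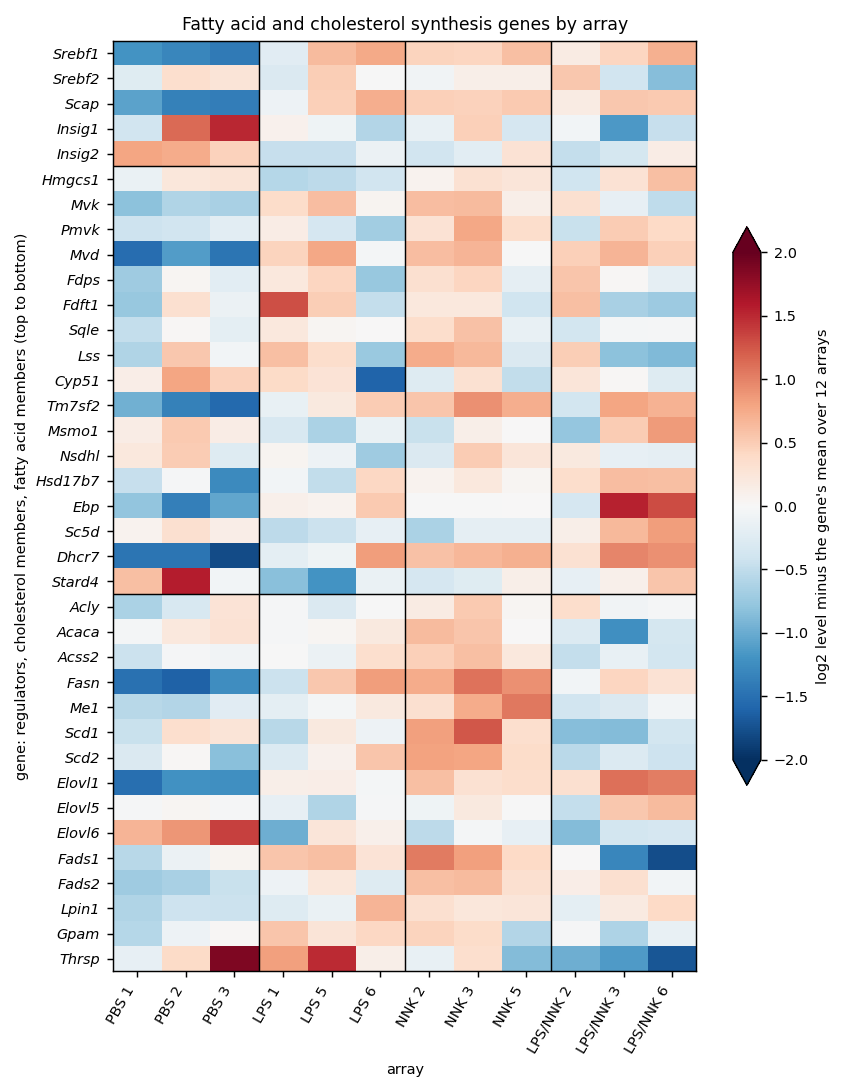
Level of each tested gene on each of the 12 arrays, as the log2 level minus that gene's mean over all arrays (colour scale from -2 to 2, values beyond it in the end colours). Rows run from the 5 regulators through 17 cholesterol genes to 15 fatty acid genes. Srebf1, Scap, Mvd, Dhcr7 and Fasn are low on the 3 PBS arrays, and Fads1, Scd1 and Acaca are low on LPS/NNK arrays next to NNK arrays.

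The comparison of LPS/NNK with NNK asks what weekly endotoxin changed in lungs that had met the carcinogen, though age and the time since the last NNK dose may differ too. The desaturase genes Fads1, Scd1 and Scd2 and the supply enzymes Acaca, Me1 and Acss2 were lower in LPS/NNK lungs and the cholesterol gene Sc5d was higher. Acly and Fads2 were not called, and Fasn was not called here but was called lower with quantile normalization and cyclic loess. Of 37 genes tested, 7 were called (18.9%), 1 higher and 6 lower, a share near that of all items, of which 17.3% were called, 7.92% higher and 9.35% lower. All 6 lower genes belong to the 15 fatty acid genes, whose median change was -0.69, against -0.06 over all items and -0.05 over the 17 cholesterol genes. The median of all 37 genes was -0.27, but with normexp it was -0.02 against -0.18 over all items. The arrays of both groups did not overlap for 11 of 37 genes (29.7%), against 35.9% of all items.

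Fads1 encodes the delta-5 desaturase that completes arachidonic acid and eicosapentaenoic acid. Its level was 3.15, 2.93 and 2.51 on NNK arrays 2, 3 and 5, and 2.12, 0.81 and 0.33 on LPS/NNK arrays 2, 3 and 6. Every LPS/NNK array lay below every NNK array, and LPS/NNK 2 stood nearest to them. The group means were 2.86 ± 0.33 and 1.09 ± 0.93 (SD, n = 3), a log2 change of -1.78 with a standard error of 0.38, or 3.42-fold lower (adjusted p = 0.008).

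Scd1 and Scd2 encode stearoyl-CoA desaturases, which turn saturated into monounsaturated fatty acids. Scd1 stood at 5.52, 5.95 and 5.04 on the NNK arrays and at 3.86, 3.84 and 4.33 on the LPS/NNK arrays. The groups did not overlap, and Scd1 was 2.82-fold lower (log2 change -1.49, standard error 0.31, adjusted p = 0.00695). Scd2 stood at 6.44, 6.42 and 5.99 in NNK and at 5.09, 5.35 and 5.22 in LPS/NNK lungs, where the groups again did not overlap. Scd2 was 2.09-fold lower (log2 change -1.06, standard error 0.28, adjusted p = 0.0222). These 2 genes are close paralogs, and whether either probe also binds the transcript of the other was not tested.

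Of the enzymes that feed the pathway, Acaca, the acetyl-CoA carboxylase that makes malonyl-CoA in the cytosol, stood at -0.64, -0.72 and -1.26 in NNK and at -1.55, -2.5 and -1.62 in LPS/NNK lungs. Its highest LPS/NNK array lay just below its lowest NNK array, and Acaca was 2.02-fold lower (log2 change -1.02, standard error 0.28, adjusted p = 0.0265). Both dimmer Acaca probes changed less, by -0.38 and -0.26. Me1, the malic enzyme that supplies NADPH, stood at 1.82, 2.25 and 2.55 in NNK and at 1.12, 1.22 and 1.44 in LPS/NNK lungs, 1.92-fold lower without overlap (log2 change -0.94, standard error 0.25, adjusted p = 0.0201). Acss2 makes acetyl-CoA from acetate. It stood at 1.38, 1.5 and 1.12 in NNK and at 0.43, 0.76 and 0.54 in LPS/NNK lungs. It was 1.69-fold lower without overlap (log2 change -0.75, standard error 0.23, adjusted p = 0.0393).

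The other 9 fatty acid genes were not called. Thrsp, a lipogenic nuclear protein, differed by -1.05 ± 0.49 (standard error, adjusted p = 0.155), and Fasn, the fatty acid synthase itself, by -0.69 ± 0.3 (adjusted p = 0.133), each with no overlap between the groups. Quantile normalization and cyclic loess did call Fasn lower (-1.03 and -0.97, adjusted p = 0.0107 and 0.0176 in limma). A dimmer Fasn probe changed by -0.91. Fads2, the delta-6 desaturase, differed by -0.39 ± 0.22. Gpam and Lpin1, enzymes of glycerolipid synthesis, differed by -0.34 ± 0.3 and -0.13 ± 0.27. Acly, which makes cytosolic acetyl-CoA from citrate, differed by -0.16 ± 0.27, and the elongases Elovl6, Elovl5 and Elovl1 by -0.29 ± 0.33, 0.19 ± 0.29 and 0.39 ± 0.25.

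Among cholesterol genes only Sc5d, a sterol desaturase near the end of the pathway, was called. It stood at 0.48, 0.94 and 0.93 in NNK and at 1.23, 1.76 and 1.95 in LPS/NNK lungs, 1.81-fold higher without overlap (log2 change 0.86, standard error 0.25, adjusted p = 0.0319). The other 16 cholesterol genes lay between -0.77 (Lss, lanosterol synthase, standard error 0.46) and 0.84 (Ebp, a sterol isomerase, standard error 0.39), and none was called. The regulators differed little beside their errors: Srebf1 by -0.06 ± 0.27, Scap by -0.08 ± 0.25, Insig2 by -0.12 ± 0.26, Srebf2 by -0.29 ± 0.33 and Insig1 by -0.55 ± 0.44 (standard errors, adjusted p = 0.415 to 0.905).

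These calls depended on the background correction and on single arrays. With normexp background correction limma called none of the 37 genes, of which 4 had an unadjusted p under 0.05 (Fads1 -1.23, adjusted p = 0.158; Scd1 -1.16, adjusted p = 0.224), and called 353 of 21856 items. Fads1 and Scd1 were called under each of the other 15 settings tried, Scd2 and Me1 in 11 of 16, Acaca in 8, Acss2 in 7 and Sc5d in 6. Leaving out NNK 2 gave a count of 3, NNK 3 gave 2, LPS/NNK 3 gave 2, LPS/NNK 6 gave 4 and LPS/NNK 2 gave 10 of 37 (where 26.6% of all items were called). Between the 2 arrays that shared slide 6 (LPS/NNK 2 and NNK 3) and the 2 that shared slide 7 (LPS/NNK 3 and NNK 5), Fads1 differed by -0.81 and -1.7, Scd1 by -2.09 and -1.2, Scd2 by -1.34 and -0.64, Acaca by -0.84 and -1.23, Me1 by -1.13 and -1.33, Acss2 by -1.07 and -0.36, and Sc5d by 0.28 and 0.83. A fit with slide as a fixed term called 3 genes, Fads1 (-1.44), Scd1 (-1.41) and Scd2 (-1.14).

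**Figure D2:**
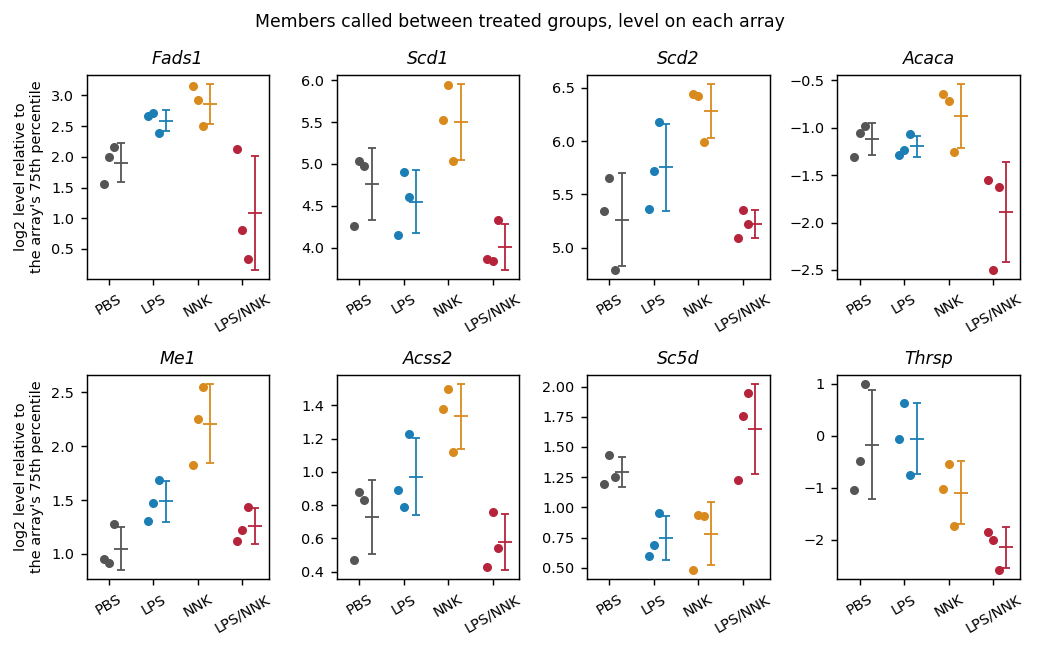
Levels of the 8 genes called between treated groups, as log2 relative to each array's 75th percentile; points are arrays and the bars beside them give the mean ± SD of 3 arrays. The LPS/NNK points of Fads1, Scd1, Scd2, Acaca, Me1 and Acss2 lie below all NNK points, those of Sc5d lie above them, and those of Thrsp lie below all LPS points.

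Cell markers moved between these groups as well. In RNA of a whole tissue, fewer cells of a type and less RNA per cell cannot be told apart. The linear levels of the 7 alveolar macrophage markers tested summed to 109 to 134 in NNK and 194 to 625 in LPS/NNK lungs (3 of 7 called higher). The levels of 6 leukocyte markers summed to 507 to 748 and 469 to 1090 (3 of 6 called higher). Each sum rests mostly on its brightest marker: Chil3, with means of 6.56 and 8.13, and Lyz2, with means of 9.19 and 9.5. The 10 alveolar type 2 markers summed to 1500 to 2170 and 1340 to 2730 (2 of 10 called lower), mostly through Sftpc, with means of 10.31 and 10.51. The 2 club cell markers summed to 398 to 504 and 179 to 323, and the 6 heart muscle markers to 68.7 to 183 and 41.9 to 105 (3 of 6 called lower). The 8 adipocyte markers summed to 18.5 to 28.3 and 10.5 to 29.5, with none called by limma (1 of 8 at an unadjusted p under 0.05), and Adipoq and Plin1 were well above background on all 12 arrays while the leptin probe was not kept. The part of these cells in the changes of the lipid genes was not tested.

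LPS/NNK against LPS asks what the carcinogen added to endotoxin. Thrsp and Fads1 were lower in LPS/NNK lungs and no gene was called higher. These 2 of 37 (5.41%) compare with 4.11% of all items called and 1.26% called lower, and the median change of the 37 genes was 0.05 against 0.11 over all items. The groups did not overlap for 9 of 37 genes (24.3%), against 20.9% of all items. Thrsp stood at -0.06, 0.62 and -0.75 on LPS arrays 1, 5 and 6 and at -1.85, -2.01 and -2.59 on the LPS/NNK arrays. Every LPS/NNK array lay below every LPS array, a 4.25-fold difference (log2 change -2.09, standard error 0.49, adjusted p = 0.036). Fads1 stood at 2.67, 2.71 and 2.39 on the LPS arrays, all above the LPS/NNK values given for this gene, and was 2.83-fold lower (log2 change -1.5, standard error 0.38, adjusted p = 0.0456).

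The summed level of the adipocyte markers was highest on LPS 5 (50.3) and PBS 3 (49.4), where Thrsp stood at 0.62 and 0.99, and lowest on LPS/NNK 6 (10.5), where Thrsp stood at -2.59. Adipoq, the fat cell hormone adiponectin, stood at 0.3, 1.26 and -3.34 on the same arrays. Other arrays did not follow that order: LPS 6 and LPS/NNK 3 had like sums (30.7 and 29.5) with Thrsp at -0.75 and -2.01, and PBS 1 and PBS 2 had low sums (14.7 and 15.8) with Thrsp at -1.04 and -0.49. In LPS/NNK against LPS none of the 8 adipocyte markers was called by limma, 5 had an unadjusted p under 0.05 and their median change was -1.16. The part of fat cells in the Thrsp values was not tested. Sc5d was 1.86-fold higher without overlap but missed the threshold (adjusted p = 0.0584), as did Elovl1, an elongase of saturated fatty acids (0.74 ± 0.25, adjusted p = 0.0923), and Hmgcs1, the HMG-CoA synthase (0.65 ± 0.26, adjusted p = 0.148).

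The count of 2 was 8 without LPS/NNK 2, where Hmgcs1, Msmo1, Ebp, Sc5d, Elovl1 and Elovl5 were called higher and Fads1 and Thrsp lower, 8 of 37 where 22.1% of all items were called. It was 0 without LPS 1, LPS 5, LPS/NNK 3 or LPS/NNK 6, 1 without LPS 6, and 0 with normexp or quantile normalization, where 3 to 8 of the 37 genes had an unadjusted p under 0.05 in limma.

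**Figure D3:**
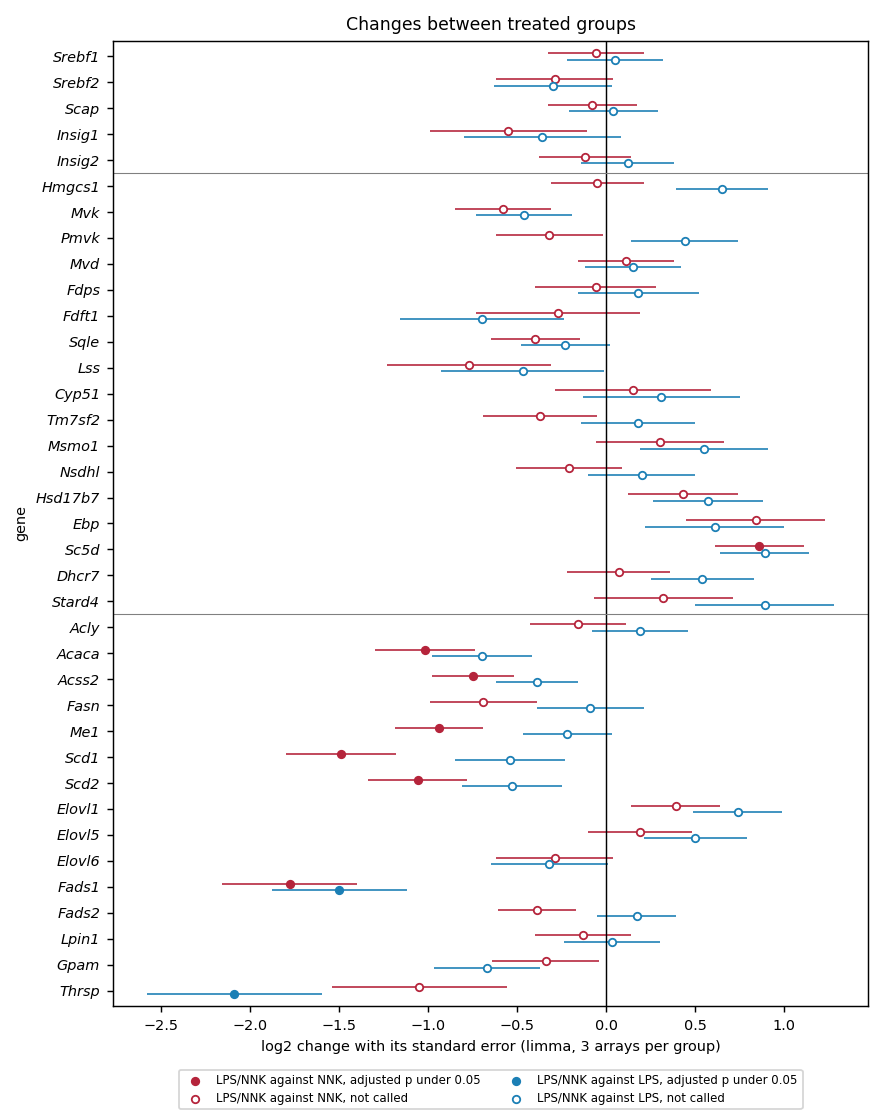
Log2 change of each tested gene between treated groups with its standard error, red for LPS/NNK against NNK and blue for LPS/NNK against LPS; filled points had an adjusted p under 0.05 in limma and the 2 comparisons share the LPS/NNK arrays. Red filled points lie on the left at 6 fatty acid genes, from Acss2 (-0.75) to Fads1 (-1.78), and on the right only at Sc5d (0.86), and blue filled points lie on the left at Fads1 (-1.5) and Thrsp (-2.09).

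Against PBS, whose 3 arrays the next 3 comparisons share, several regulators and enzymes differed in every treated group. In LPS lungs 13 of 37 genes (35.1%) were called, 10 higher and 3 lower, where 56% of all items were called, 26.1% higher and 30% lower. NNK against PBS gave 18 of 37 (48.6%), 16 higher and 2 lower, where 51.5% of items were called, 27.8% higher and 23.7% lower. LPS/NNK against PBS gave 15 of 37 (40.5%), 10 higher and 5 lower, where 55.1% of items were called, 27.9% higher and 27.1% lower. The median changes of the 37 genes were 0.25, 0.49 and 0.08, against -0.06, 0.04 and -0.04 over all items. That order turned with the processing: with normexp the medians were 0.2, 0.28 and -0.03 against 0.34, 0.55 and 0.53, and without the filter on dim probes the same 0.25, 0.49 and 0.08 stood against 0.49, 0.5 and 0.48. The groups did not overlap for 21, 22 and 16 of the 37 genes (56.8%, 59.5% and 43.2%), against 62.5%, 67.6% and 62% of all items, so these shares stand below the background. The split of higher and lower calls moved with the scaling: it was 9 and 8, 12 and 4, and 10 and 8 with quantile normalization, and 7 and 8, 10 and 5, and 8 and 9 with cyclic loess.

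Of the regulators, Srebf1 stood at 4.09, 3.98 and 3.88 on the PBS arrays, at 5.06, 5.92 and 6.05 in LPS, at 5.73, 5.72 and 5.89 in NNK and at 5.45, 5.72 and 6 in LPS/NNK lungs. Every treated array lay above every PBS array, with log2 changes of 1.69, 1.8 and 1.74 (standard error 0.27 each, adjusted p = 0.000284, 0.000348 and 0.000185) and LPS 1 the nearest to PBS. Without PBS 1 and 2 the changes were 1.79, 1.9 and 1.84 and stayed called. With cyclic loess they were 0.79, 0.88 and 0.64, also called.

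Scap, the escort of the SREBPs, stood at 3.64, 3.35 and 3.33 in PBS, at 4.61, 5.19 and 5.43 in LPS, at 5.19, 5.17 and 5.23 in NNK and at 4.87, 5.25 and 5.23 in LPS/NNK lungs. The treated arrays again all lay above PBS, by 1.63, 1.76 and 1.67 (standard error 0.25 each), or by 0.84, 0.94 and 0.7 with cyclic loess. Srebf2, whose product acts mainly on cholesterol genes, ranged from -0.79 to 0.61 over the 12 arrays with overlapping groups, and its changes of -0.06, -0.07 and -0.36 (standard error 0.33 each) were not called.

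Insig2, one of the retention proteins, stood at 1.76, 1.72 and 1.44 in PBS, at 0.52, 0.51 and 0.86 in LPS, at 0.59, 0.77 and 1.27 in NNK and at 0.5, 0.63 and 1.13 in LPS/NNK lungs. All treated arrays lay below all PBS arrays, by -1.01, -0.76 and -0.89 (standard error 0.26 each, adjusted p = 0.00523, 0.0251 and 0.0105 in limma). A second, dimmer Insig2 probe changed by -1.21, -0.99 and -0.31. With normexp the 3 calls were lost (-0.87, -0.74 and -0.81, adjusted p = 0.0556, 0.064 and 0.0543 in limma). Without PBS 1 and 2 these calls were lost (-0.8, -0.56 and -0.69, adjusted p = 0.148, 0.32 and 0.207). Insig1, itself a target of SREBPs, stood at -1.24, 0.28 and 0.65 in PBS, at -0.77, -0.95 and -1.44 in LPS, at -1.01, -0.38 and -1.19 in NNK and at -0.91, -2.01 and -1.31 in LPS/NNK lungs. PBS 1 lay among the treated arrays, and only LPS/NNK was called (-1.31, standard error 0.44, adjusted p = 0.023). Without PBS 1 and 2 the 3 changes were -1.7, -1.51 and -2.06 and all were called.

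**Figure D4:**
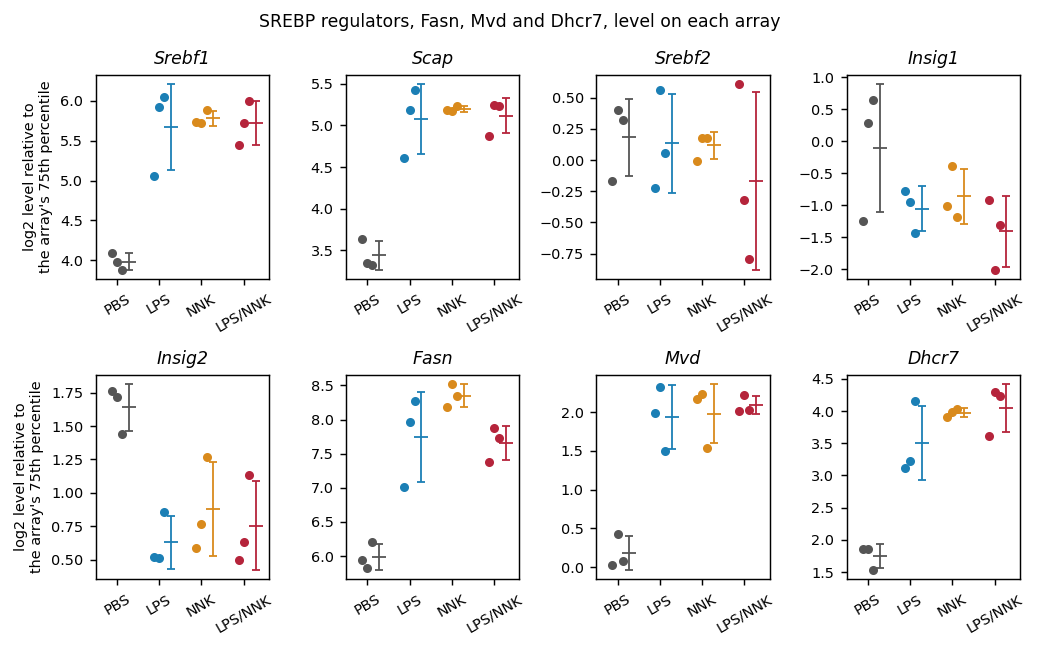
Levels of the 5 regulators and of Fasn, Mvd and Dhcr7 on each array, as log2 relative to the array's 75th percentile, with the mean ± SD of 3 arrays beside the points. The treated points of Srebf1, Scap, Fasn, Mvd and Dhcr7 lie above all PBS points, those of Insig2 lie below them, and the points of Srebf2 and Insig1 overlap between PBS and treated groups.

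In the cholesterol pathway, Mvd, Tm7sf2, Dhcr7 and Ebp were called higher in all 3 treated groups. Mvd, the mevalonate diphosphate decarboxylase, stood at 0.03, 0.43 and 0.08 in PBS, at 1.99, 2.32 and 1.5 in LPS, at 2.17, 2.23 and 1.54 in NNK and at 2.02, 2.22 and 2.03 in LPS/NNK lungs. The groups did not overlap with PBS, and Mvd was 3.38-fold, 3.48-fold and 3.76-fold higher (log2 changes 1.76, 1.8 and 1.91, standard error 0.27 each). Mvd stayed called under every setting tried, from 1.22 to 2.13.

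Dhcr7, the reductase of the last step, stood at 1.86, 1.86 and 1.53 in PBS, at 3.12, 3.23 and 4.16 in LPS, at 3.9, 3.99 and 4.03 in NNK and at 3.62, 4.29 and 4.23 in LPS/NNK lungs. It was 3.37-fold, 4.67-fold and 4.9-fold higher without overlap (log2 changes 1.75, 2.22 and 2.29, standard error 0.29 each). A second, dimmer Dhcr7 probe gave 1.41, 1.62 and 0.51. Tm7sf2, a sterol reductase, stood at 0.91, 0.53 and 0.32 in PBS, at 1.73, 2.08 and 2.38 in LPS, at 2.44, 2.8 and 2.6 in NNK and at 1.51, 2.66 and 2.58 in LPS/NNK lungs. It was higher by 1.48, 2.03 and 1.66 (standard error 0.32 each), and no treated array reached the PBS range.

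Ebp stood at 4.26, 3.69 and 4.02 in PBS, at 5.15, 5.12 and 5.57 in LPS, at 5.05, 5.05 and 5.06 in NNK and at 4.72, 6.6 and 6.36 in LPS/NNK lungs. No treated array reached the PBS range, and LPS/NNK 2 lay well below the other 2 arrays of its group. Its changes were 1.29, 1.06 and 1.9 (standard error 0.39 each, adjusted p = 0.0132, 0.0366 and 0.00126 in limma). The first 2 calls were lost with cyclic loess (0.43 and 0.19), quantile normalization (0.62 and 0.44) and normexp (1.2 and 0.42). The third was kept in each of these, at 0.86, 0.98 and 1.49. With slide as a fixed term the NNK call was lost too (1.21). Without PBS 1 and 2 the changes were 1.26, 1.03 and 1.87, of which the first 2 are not counted as calls.

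Other steps were called in 1 or 2 of the groups. Mvk, the mevalonate kinase, was called higher in LPS (1.03 ± 0.27) and NNK lungs (1.15 ± 0.27). Pmvk, the kinase after it, was called higher in NNK (0.81 ± 0.3) and Hsd17b7, a sterol ketoreductase, in LPS/NNK lungs (1.11 ± 0.31). A second, dimmer Hsd17b7 probe changed by -0.2, 0.04 and 0.17 in LPS, NNK and LPS/NNK lungs. Quantile normalization and slide as a fixed term also called Hsd17b7 higher in NNK lungs (0.83 and 1.07). Without PBS 1 and 2 its changes were 1.23, 1.37 and 1.8. The Mvk calls were lost with normexp (0.86 and 0.77, adjusted p = 0.0608 and 0.0599 in limma). Without PBS 1 and 2, where only PBS 3 remains, the Mvk changes were 0.99 and 1.1 and are not counted as calls. The Pmvk call was lost with normexp, quantile normalization and cyclic loess (0.19, 0.33 and 0.27, adjusted p = 0.75, 0.348 and 0.462). Stard4, a carrier of cholesterol between membranes, stood at 0.07, 1.03 and -0.59 in PBS and at -1.38, -1.73 and -0.67 in LPS lungs, with LPS 6 just below PBS 3. It was called lower in LPS lungs (log2 change -1.42, standard error 0.39, adjusted p = 0.00708), a call lost without PBS 1 and 2 (-0.67, adjusted p = 0.279). The remaining 9 cholesterol genes, Hmgcs1, Fdps, Fdft1, Sqle, Lss, Cyp51, Msmo1, Nsdhl and Sc5d, were called in none of the 3 comparisons. Their changes lay between -0.77 (Cyp51, the lanosterol demethylase, in LPS lungs) and 0.62 (Fdft1, the squalene synthase, in LPS lungs). Quantile normalization and cyclic loess did call 3 of them lower: Hmgcs1 in LPS (-1.16 and -1.14) and LPS/NNK lungs (-0.66 and -0.61), Msmo1, a sterol methyl oxidase, in LPS (-1.18 and -1.13) and NNK lungs (-0.93 and -0.91), and Sc5d in LPS (-0.77 and -0.69) and NNK lungs (-0.73 and -0.71).

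In the fatty acid pathway, Fasn stood at 5.94, 5.82 and 6.2 in PBS, at 7.01, 7.97 and 8.27 in LPS, at 8.18, 8.52 and 8.35 in NNK and at 7.38, 7.87 and 7.73 in LPS/NNK lungs. All treated arrays lay above PBS, by 3.39-fold, 5.14-fold and 3.19-fold (log2 changes 1.76, 2.36 and 1.67, standard error 0.3 each, adjusted p = 0.000431, 0.000174 and 0.000523). With cyclic loess the changes were 0.49, 1.08 and 0.11, of which only the second was called. Without PBS 1 and 2 they were 1.55, 2.15 and 1.46, all called.

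Elovl1 stood at 4.52, 4.81 and 4.79 in PBS, at 6.14, 6.16 and 5.99 in LPS, at 6.63, 6.33 and 6.38 in NNK and at 6.34, 7.13 and 7.04 in LPS/NNK lungs. It was higher without overlap by 1.39, 1.74 and 2.13 (standard error 0.25 each), and by 0.36, 0.7 and 0.87 with cyclic loess, where the first was not called. Elovl6, which lengthens palmitate to stearate, moved the other way. It stood at -0.57, -0.37 and 0.12 in PBS, at -2.22, -1 and -1.14 in LPS, at -1.77, -1.28 and -1.41 in NNK and at -2.12, -1.62 and -1.58 in LPS/NNK lungs. All treated arrays lay below PBS, by -1.18, -1.21 and -1.5 (standard error 0.33 each, adjusted p = 0.0085, 0.00852 and 0.00191), and these calls were lost with normexp (-0.65, -0.26 and -0.57).

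Fads2 was called higher in all 3 groups, by 0.56, 1.12 and 0.73 (standard error 0.22 each), the first in only 4 of 16 settings. Without PBS 1 and 2 these 3 calls were lost (0.4, 0.96 and 0.57). In NNK lungs, Me1 (1.16 ± 0.25), Scd2 (1.03 ± 0.28), Fads1 (0.96 ± 0.38), Lpin1 (0.74 ± 0.27) and Acss2 (0.6 ± 0.23) were also called higher than PBS. With cyclic loess Scd2 was at 0.06 and not called, and Fads1, Lpin1 and Acss2 were called in 5, 6 and 4 of 17 settings. The Me1 call was lost with normexp (0.71, adjusted p = 0.141) and with slide as a fixed term (1.01, adjusted p = 0.0711). Without PBS 1 and 2 the Me1 change was 0.92 and is not counted as a call. In LPS/NNK lungs none of these 5 was called (0.21, -0.04, -0.82, 0.61 and -0.15). Quantile normalization and cyclic loess did call Scd2 (-1.01 and -1.21) and Fads1 (-1.13 and -1.23) lower there, but normexp did not (-0.34 and -0.94). Leaving out LPS/NNK 2 called Fads1 lower (-1.33) and Lpin1 higher (0.77). Acaca (-0.77 ± 0.28) and Thrsp (-1.97 ± 0.49) were called lower in LPS/NNK lungs. The Acaca call was lost with normexp (-0.08), quantile normalization (-0.56), cyclic loess (-0.54) and slide as a fixed term (-0.47). Both dimmer Acaca probes changed by -0.05 and 0.28 in LPS/NNK lungs against PBS. Thrsp stood at -1.04, -0.49 and 0.99 in PBS, all above the LPS/NNK values and spread over about 2 units. Scd1 was called in none of the 3 comparisons (-0.21, 0.75 and -0.75, standard error 0.31 each), nor were Acly, Elovl5 and Gpam. With quantile normalization and cyclic loess Scd1 was called lower in LPS (-0.94 and -1.0) and LPS/NNK lungs (-1.64 and -1.72), Elovl5 lower in LPS (-0.9 and -0.97) and Gpam higher in LPS lungs (0.99 and 1.14). Cyclic loess alone also called Elovl5 lower in NNK (-0.68) and LPS/NNK lungs (-0.63).

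The counts without PBS 1 and 2 were 10, 12 and 12 of 37 (where 26%, 19.7% and 30.3% of all items were called), of which 8, 9 and 12 were among the genes called with all arrays. A fit with slide as a fixed term called 11 genes in NNK against PBS. Within slide 5, NNK 2 exceeded PBS 3 by 1.85 for Srebf1, 2.09 for Mvd, 2.37 for Dhcr7 and 1.98 for Fasn, and within slide 8, LPS/NNK 6 exceeded PBS 1 by 1.91, 2, 2.36 and 1.79. No slide held both an LPS and a PBS array, so slide and group cannot be told apart there.

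**Figure D5:**
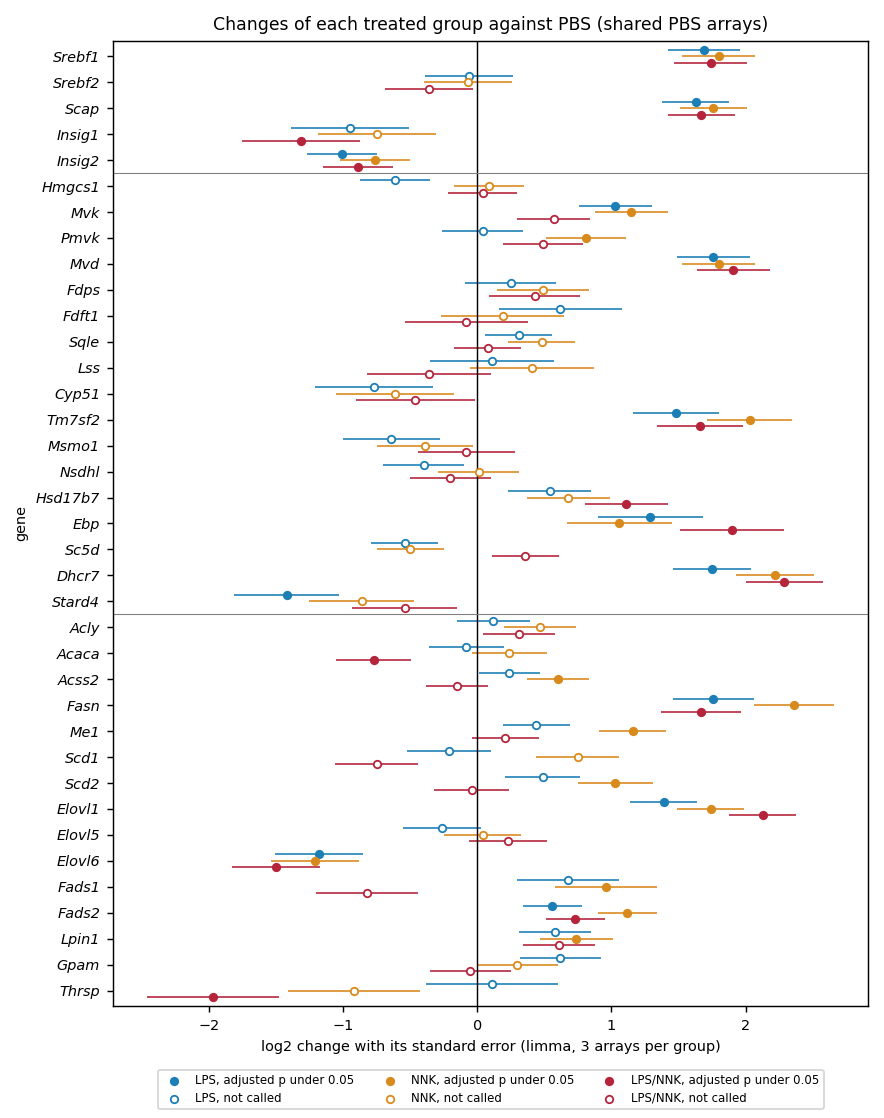
Log2 change of each tested gene in LPS (blue), NNK (orange) and LPS/NNK lungs (red) against the same 3 PBS arrays, with standard errors; filled points had an adjusted p under 0.05 in limma. Srebf1, Scap, Mvd, Tm7sf2, Ebp, Dhcr7, Fasn, Elovl1 and Fads2 have 3 filled points on the right, and Insig2 and Elovl6 have 3 on the left.

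The treated groups also differed from PBS in cell markers. The linear levels of the 10 alveolar type 2 markers summed to 628 to 922 in PBS, 1260 to 1630 in LPS, 1500 to 2170 in NNK and 1340 to 2730 in LPS/NNK lungs. Of the 10, 7, 8 and 6 were called higher than PBS and 1, 0 and 1 lower. Their sums rest mostly on Sftpc, with means of 8.76, 9.78, 10.31 and 10.51. The linear levels of the 6 leukocyte markers summed to 183 to 338, 354 to 565, 507 to 748 and 469 to 1090 in the same order. Of them 3, 3 and 4 were called higher, and 1, Ptprc, was called lower in NNK lungs. These sums rest mostly on Lyz2, the brightest marker, whose means were 7.89, 8.74, 9.19 and 9.5. The means of Ptprc were 3.31, 2.95, 2.22 and 3.74, so the sums do not stand for all leukocyte markers. The 7 alveolar macrophage markers summed to 140 to 149, 197 to 301, 109 to 134 and 194 to 625, with 1, 0 and 2 called higher and 3, 2 and 1 called lower. Here the sums rest mostly on Chil3, with means of 6.84, 7.7, 6.56 and 8.13. They rose in LPS lungs although more markers were called lower than higher there. The part of these cells in the changes against PBS was not tested.

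The interaction of LPS and NNK tests whether the combined change differs from the sum of both single changes. It was called for 16 of 37 genes (43.2%), 2 above and 14 below the sum, where 38.7% of all items were called, 20.1% above and 18.6% below. The median over the 37 genes was -0.88, against 0.01 over all items, but -0.47 against -0.39 with normexp and -0.88 against -0.52 without the filter on dim probes, where 12.8% of items were called above and 27.2% below the sum. The most negative were Fads1 (-2.46 ± 0.54, adjusted p = 0.00492) and Fasn (-2.45 ± 0.43, adjusted p = 0.00211), with standard errors. Fads1 had changed by 0.68 with LPS and 0.96 with NNK but by -0.82 with both. Fasn had changed by 1.76 and 2.36, and by 1.67 with both. Srebf1, Scap, Mvd, Dhcr7 and Tm7sf2 followed the Fasn form, each single change being about as large as the combined one, with interactions of -1.75, -1.72, -1.65, -1.68 and -1.84. Stard4 was above the sum (1.74 ± 0.55, adjusted p = 0.0236): it had changed by -1.42 and -0.86, and by -0.54 with both. With normexp limma called no interaction (11 of 37 at an unadjusted p under 0.05), and 7 were called without PBS 1 and 2 (Srebf1, Scap, Mvd, Tm7sf2, Dhcr7, Fasn and Scd2). The split was 5 above and 13 below with quantile normalization, and 6 and 12 with cyclic loess.

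Neighbouring lipid pathways, taken as lists chosen by function, were read in LPS/NNK against NNK in the same way, beside the 7.92% of all items called higher and 9.35% called lower. Of 12 genes of glycerolipid and surfactant phospholipid synthesis, 4 were called lower and none higher (median -0.63): Lpin2 (-1.16) and Lpin3 (-1.01), phosphatidate phosphatases like Lpin1, Agpat2 (-1.14), which makes phosphatidic acid, and Chpt1 (-0.93), which makes phosphatidylcholine. Of 10 fatty acid oxidation genes 2 were called lower (median -0.47), the regulator Ppara (-1.28) and Cpt1a (-0.85), which admits fatty acids to mitochondria. Of 11 genes of fatty acid supply and elongation, Mlxipl, the carbohydrate-responsive lipogenic factor ChREBP, was called lower (-1.2) and Hsd17b12, a reductase of fatty acid elongation, higher (0.94). Of 12 genes of sterol sensing, efflux and storage, Apoe, a cholesterol carrier that macrophages secrete, was called higher (1.96) and Soat1, which esterifies cholesterol, lower (-1.27). Against PBS, 9, 9 and 8 of the 12 genes of sterol sensing, efflux and storage were called higher in LPS, NNK and LPS/NNK lungs, where 26.1%, 27.8% and 27.9% of all items were. The counts called higher were 6, 7 and 4 of 12 for glycerolipid and surfactant phospholipid synthesis (1, 1 and 3 lower), 4, 4 and 4 of 11 for fatty acid supply and elongation (2, 1 and 2 lower), and 1, 3 and 1 of 10 for fatty acid oxidation (1, 2 and 3 lower).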

How the data were processed

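RNA of 12 mouse lung samples was hybridised in 1 colour (Cy3) to Agilent arrays of design 014868. The deposited scanner files give an intensity per spot from Agilent Feature Extraction 10.7.3.1, per the file headers, which subtracted background and detrended within each array with no scaling between arrays; the same software set the flags for outliers and signal above background. The table of log2 values that the authors deposited is relative to each array's 75th percentile (column medians -3.5 to -2.94) and differed from the values computed here by a median of at most 0.0015. Partek is named in the submitters' processing notes with no version, and its step is not given in the sources used here.

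The level used here is log2 of the processed intensity minus the array's 75th percentile, after leaving out 39 to 99 outlier spots per array and averaging the spots of a probe; 0 spots were saturated. Of 41174 probes, 24355 had 1 symbol through their RefSeq accession, for 17009 genes. Probes flagged well above background on all 3 arrays of any group were kept (28334 probes), and the brightest kept probe stood for its gene, which 18 of the lipid genes needed. This gave 21856 items. limma 3.58.1 (R 4.3.3; lmFit and eBayes) fitted the 4 group means over all 12 arrays with 8 residual and 5.5 prior degrees of freedom. Tests were 2-sided with Benjamini-Hochberg adjustment over all items. The number of arrays limits the precision: the smallest p of an exact permutation test of 3 against 3 is 0.1, so none could pass 0.05.

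The fit was tested on simulated data with known changes. Alternatives were normexp (offset 50, on median spot and background intensities, since the files hold no mean signal column), quantile and cyclic loess normalization, no filter on dim probes, the mean of probes, the deposited table, only the groups compared, replicate number or slide as a block, and leaving out arrays. Genes given with every array are the 5 regulators and, per comparison, up to 8 called genes with the largest change whose groups do not overlap (overlap was allowed for the interaction). Members, lists and tests were chosen with earlier results of these data known. Figures were drawn with matplotlib 3.10.9 in Python 3.11.15.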

Additional observations from a re-analysis of the deposited data

Results flagged for a closer look

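For 16 of the 37 tested genes limma called the interaction term (LPS/NNK minus LPS minus NNK plus PBS, on the log2 scale), a share of 43.2% where 38.7% of all items were called. Of the regulators, Srebf1 had an interaction of -1.75 and Scap of -1.72. In the cholesterol pathway the values were -1.61 for Mvk, -1.65 for Mvd, -1.84 for Tm7sf2, -1.68 for Dhcr7, 1.4 for Sc5d and 1.74 for Stard4. In the fatty acid pathway they were -1.0 for Acss2, -2.45 for Fasn, -1.38 for Me1, -1.29 for Scd1, -1.56 for Scd2, -1.0 for Elovl1, -2.46 for Fads1 and -0.95 for Fads2. Elovl1 kept this call in 7 of 21 settings, Scd1 in 10 and Fads2 in 12. All 16 rest on the same 3 PBS arrays, and with normexp limma called 0. For Srebf1, Scap, Mvd, Dhcr7 and Tm7sf2 the 3 treated groups stood about equally far above PBS. There the term mostly restates the distance of PBS from all treated arrays. Whether the effect of LPS itself depends on NNK was not tested apart from that distance.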

How the results depend on the processing

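Counts of called genes (13, 18 and 15 of 37 for LPS, NNK and LPS/NNK against PBS, 7 for LPS/NNK against NNK, 2 for LPS/NNK against LPS and 16 for the interaction) moved by more than 1.5 times as follows. With normexp they were 8 for LPS against PBS and 8 for NNK against PBS, 0 for both comparisons between treated groups and 0 for the interaction; over all items limma after normexp called 353, 0 and 51 in the last 3 (4, 3 and 11 of the 37 genes had an unadjusted p under 0.05), and it moved the median of all items against PBS to 0.34, 0.55 and 0.53. LPS/NNK against LPS gave 0 with quantile normalization, 1 with cyclic loess, 0 without the filter on dim probes and 0 with only the groups compared, and LPS/NNK against NNK gave 4 and 4 in the last 2. With the slide as a fixed effect NNK against PBS gave 11 and LPS/NNK against NNK 3. The interaction gave 7 without PBS 1 and 2. Where LPS/NNK against LPS gave 0, limma left 3 to 8 of the 37 genes at an unadjusted p under 0.05. The cause of these moves was not tested. Leaving out each array in turn gave 11 to 13, 12 to 17 and 12 to 20 against PBS, 2 to 10 for LPS/NNK against NNK, 0 to 8 for LPS/NNK against LPS and 11 to 18 for the interaction; for LPS/NNK against NNK, dropping NNK 2 gave 3, NNK 3 gave 2, LPS/NNK 3 gave 2 and LPS/NNK 6 gave 4, and for LPS/NNK against LPS 0 without LPS 1, LPS 5, LPS/NNK 3 or LPS/NNK 6, 1 without LPS 6 and 8 without LPS/NNK 2.

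Of 222 results for single genes, 5 values under an alternative lay on the other side of 0 with a call. In LPS/NNK against PBS these were Hmgcs1 (0.04; -0.66 with quantile normalization, -0.61 with cyclic loess), Elovl5 (0.23; -0.63 with cyclic loess) and Fdft1 (-0.08; 1.01 with the mean of its probes), and in NNK against PBS Elovl5 (0.04; -0.68 with cyclic loess).

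Same-numbered arrays of different groups formed 9 pairs whose deviations correlated at -0.15 to 0.41, with 3 over 0.1. The highest were 0.41 for LPS 6 with LPS/NNK 6 and 0.26 for NNK 2 with LPS/NNK 2. So few pairs cannot decide whether the numbers mark paired samples, and the main fit did not pair them. With the replicate number as a block the counts were 15, 18, 17, 6, 2 and 18 in the order above.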
